A study of Mus musculus with 28 samples.

Results

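The genes described here are 10 transcription factors of blood stem, progenitor and granulocyte-monocyte stages: Spi1, Cebpa, Cebpb, Cebpe, Gfi1, Runx1, Meis1, Myb, Ikzf1 and Myc. They were taken by symbol from a table of 25251 genes, and all 10 were found. RNA was sequenced from BM mononuclear cells (MNCs), endothelial cells (ECs; CD45-Ter119-CD31+) and mesenchymal stromal cells (MSCs; CD45-Ter119-CD31-CD166-Sca1+) of C57BL/6 mice aged 8 to 10 wk. The mice were either wild type (WT; Flt3+/+) or carried the Flt3-ITD knock-in on both alleles (Flt3 ITD/ITD), an internal tandem duplication that makes the receptor tyrosine kinase FLT3 signal without its ligand and that every cell of the animal carries. Each library came from 1 mouse and from 200 MNCs, 100 ECs or 100 MSCs, with 4 mice per genotype for MNCs and 5 per genotype for ECs and MSCs, 28 libraries in all. The sex of the mice was not given in the sources used here.

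Blood cells take their identity from small sets of transcription factors that act together and against each other. PU.1, the product of Spi1, and C/EBPα open the granulocyte-monocyte program, C/EBPε and GFI1 carry it on into granulocytes, and C/EBPβ drives granulocyte production under stress. RUNX1, MEIS1 and MYB act in stem and progenitor cells, IKAROS (Ikzf1) in lymphoid and early blood cells, and MYC drives growth and division in many cell types.

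Total counts ranged from 6377013 to 33880743 per library, and a floor of 3 counts was set for what a library can show. Reads were amplified and carried no molecular identifiers, so that this floor speaks to counting error alone. Levels are given as RPKM, the authors' count scaled to transcript length and library total. Ptprc, which encodes CD45, lay between 125 and 161 RPKM in MNCs, Cdh5 between 165 and 252 in ECs and Pdgfrb between 11.4 and 25.0 in MSCs. Flt3 itself lay between 2.53 and 6.96 RPKM in WT MNCs and between 6.91 and 14.8 in Flt3 ITD/ITD MNCs, and the counts do not separate the mutant from the normal allele. Leukocyte transcripts were most abundant in 2 niche libraries: Ptprc had 778 counts in EC replicate 2 and 32 counts in MSC replicate 5 of Flt3 ITD/ITD mice, against at most 17 counts in any other EC or MSC library. Granule genes of neutrophils, with S100a8 and S100a9 counted among the secondary ones, were raised in further niche libraries. The secondary granule genes summed to 30922 and 6341 RPKM in those 2 libraries, to 1321 in WT EC replicate 1 and to 506 in Flt3 ITD/ITD MSC replicate 3, against at most 101 in the others, and the primary granule genes summed to 69.4 RPKM in WT MSC replicate 5, against at most 4.67 in the other WT MSCs. In Flt3 ITD/ITD ECs the primary granule genes summed to 113, 15.9 and 5.96 RPKM in replicates 2, 3 and 5. They summed to 0.37 and 0.35 in replicates 1 and 4, and to at most 0.40 in WT ECs. In Flt3 ITD/ITD MSC replicate 5 they summed to 16.6 RPKM. All these libraries were kept in the main fits. A later check left out 5 of them: Flt3 ITD/ITD EC replicate 2, Flt3 ITD/ITD MSC replicates 3 and 5, WT EC replicate 1 and WT MSC replicate 5.

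In MNCs all 10 factors had more than 3 counts in each of the 8 libraries. By mean level Ikzf1 came first (39.9 ± 9.90 RPKM, SD, n = 8), followed by Myc (27.7 ± 10.3), Myb (27.6 ± 9.32) and Cebpe (22.7 ± 12.5). Spi1 (7.35 ± 7.85), Cebpb (6.96 ± 3.26), Meis1 (5.79 ± 3.02), Runx1 (5.66 ± 1.82), Cebpa (3.42 ± 1.16) and Gfi1 (2.64 ± 1.41) followed. Each factor's range over the 8 libraries overlapped that of the next in this order. The steadiest factor was Ikzf1, whose highest library lay 1.86 times above its lowest, and the widest ratio was that of Spi1, at 11.6. That ratio rested on Flt3 ITD/ITD replicate 2, without which it was 3.45 and the mean 4.65 ± 1.96 RPKM (SD, n = 7).

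**Figure D1:**
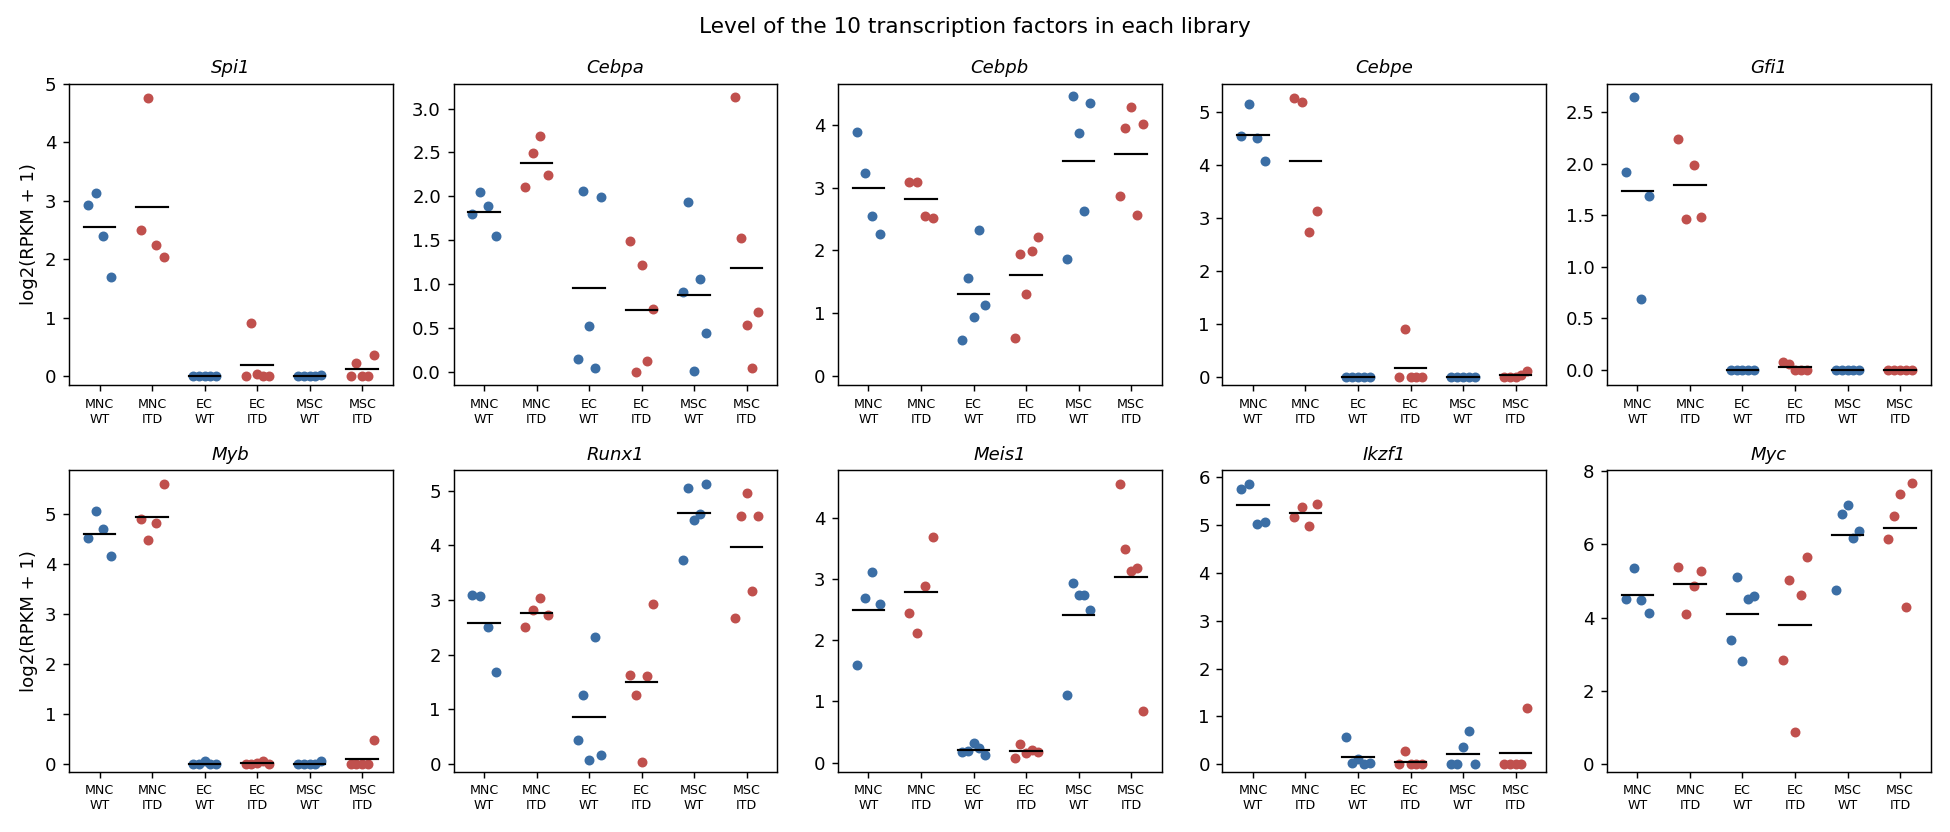
Level of each factor in each of the 28 libraries, as log2(RPKM + 1) on the vertical axis with its own scale per gene. Blue points are WT libraries, red points Flt3 ITD/ITD libraries, and black lines group means. Cebpe, Gfi1, Myb, Spi1 and Ikzf1 lie near 0 in ECs and MSCs, whereas Runx1 and Myc are highest in MSCs, with means of 21.0 and 98.7 RPKM.

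The first comparison asked whether any of the 10 factors differed between Flt3 ITD/ITD and WT MNCs. None did by edgeR's quasi-likelihood test at an adjusted p below 0.1: 0 of 10 were called, where 0.0144% of the 13926 genes tested were called. None of the 10 had an unadjusted p below 0.05 in that fit, whereas 1447 of the 13926 genes tested did. The exact test of edgeR called none of the 10 and 168 of 13926 genes. DESeq2 called none of the 10 and 446 of 22751 genes, but gave no p-value for Spi1. By DESeq2 the unadjusted p of Ikzf1 was 0.0294 (adjusted p = 0.30). Counts for other lists of genes in MNCs are to be read against these numbers. Fitted log2 fold changes were positive for 5 factors and negative for 5, with a median of 0.02 against -0.0053 over all genes tested. By mean RPKM 6 of the 10 were higher in Flt3 ITD/ITD MNCs. The edgeR SE of the log2 fold change ran from 0.17 (Ikzf1) to 0.71 (Spi1). For the factors with a large SE, changes of a few-fold could go uncalled. In bulk RNA, fewer cells of a type and less RNA per cell cannot be told apart.

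Cebpa, which encodes the factor that commits progenitors to the granulocyte-monocyte lineage, was the 1 factor whose genotypes did not overlap in RPKM. WT MNC libraries held 2.49, 3.13, 2.71 and 1.93 RPKM, and Flt3 ITD/ITD libraries 3.30, 4.63, 5.45 and 3.74. Every Flt3 ITD/ITD library lay above every WT library (exact two-sided permutation test, p = 0.0286, the smallest that 4 mice against 4 allow), as was true in either direction of 6.71% of all genes tested. On CPM scaled by TMM, the normalization of the edgeR fit, the genotypes overlapped (6.18 to 9.02 in WT and 8.69 to 13.9 in Flt3 ITD/ITD, exact permutation p = 0.0857), and by edgeR the log2 fold change was 0.54 (SE 0.28, adjusted p = 0.53).

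Ikzf1 came nearest to a call of the 10 in the edgeR fit (adjusted p = 0.48), with a log2 fold change of -0.38 (SE 0.17). It held 52.4, 56.2, 31.1 and 32.0 RPKM in WT MNCs and 34.9, 40.1, 30.2 and 42.4 in Flt3 ITD/ITD MNCs. WT replicates 1 and 2 were the highest and the other 6 libraries overlapped. On TMM-scaled CPM it was the 1 factor whose genotypes did not overlap (182.7 to 250.7 in WT and 141.1 to 182.5 in Flt3 ITD/ITD), as was true in either direction of 5.73% of all genes tested. The exact permutation p was 0.40 on RPKM and 0.0286 on TMM-scaled CPM.

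Spi1 held 6.66, 7.80, 4.30 and 2.26 RPKM in WT MNCs and 4.66, 26.2, 3.73 and 3.11 in Flt3 ITD/ITD MNCs. A single library, Flt3 ITD/ITD replicate 2 with 708 counts, stood far above the other 7. The log2 fold change was 0.71 with that library (SE 0.71, adjusted p = 0.76) and -0.59 without it (adjusted p = 0.62), both by edgeR.

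Cebpb held 13.9, 8.45, 4.87 and 3.81 RPKM in WT MNCs and 7.52, 7.53, 4.88 and 4.70 in Flt3 ITD/ITD MNCs, so that the mutant range lay within the WT range (log2 fold change -0.46, edgeR adjusted p = 0.70). Without WT replicate 1, its highest library, the log2 fold change was -0.090. Gfi1, whose product represses monocyte genes in granulocyte precursors, held 2.79, 5.26, 0.61 and 2.21 RPKM against 3.71, 1.75, 2.97 and 1.80. Here too the mutant range lay within the WT range (log2 fold change -0.29, edgeR adjusted p = 0.89). WT replicate 3 had 18 counts of Gfi1, the fewest of any factor in an MNC library.

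The stem and progenitor factors overlapped as well. Runx1 held 7.56, 7.40, 4.65 and 2.19 RPKM in WT MNCs and 4.64, 6.06, 7.16 and 5.59 in Flt3 ITD/ITD MNCs (log2 fold change -0.03, edgeR adjusted p = 0.98). Meis1, a homeobox partner of HOX proteins, held 2.02, 5.45, 7.67 and 5.04 against 4.43, 3.37, 6.43 and 11.9 (log2 fold change 0.08, edgeR adjusted p = 0.97). Its highest library was Flt3 ITD/ITD replicate 4 and its lowest WT replicate 1.

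Myb held 22.02, 32.5, 25.0 and 16.8 RPKM in WT MNCs and 29.0, 21.2, 27.2 and 47.2 in Flt3 ITD/ITD MNCs (log2 fold change 0.13, edgeR adjusted p = 0.90). As for Meis1, Flt3 ITD/ITD replicate 4 was the highest library. Myc held 21.8, 40.0, 21.2 and 16.4 RPKM against 40.6, 16.2, 27.9 and 37.4 (log2 fold change 0.13, edgeR adjusted p = 0.91), with the highest and the lowest value both in mutant libraries.

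Cebpe, which encodes the factor needed for the secondary granules of neutrophils, split the Flt3 ITD/ITD libraries. WT MNCs held 22.3, 34.7, 21.8 and 15.9 RPKM, and Flt3 ITD/ITD MNCs held 37.7 and 35.7 in replicates 1 and 2 but 5.65 and 7.74 in replicates 3 and 4. The first pair of mutant libraries lay above all WT libraries and the second pair below all of them. Over all 8 libraries the log2 fold change was -0.27 (SE 0.59, edgeR adjusted p = 0.91).

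The MNC libraries numbered 1 and 2 also stood apart from those numbered 3 and 4 in both genotypes. The summed level of 12 immediate-early genes, which respond within minutes to handling of cells, was 587 to 904 RPKM in replicates 1 and 2 and 50.7 to 84.6 in replicates 3 and 4. The labels name no batch. Of the 10 factors, 3 did not overlap between these sets of libraries, all 3 higher in replicates 1 and 2, where 7.89% of all genes tested did not overlap in either direction. These were Cebpb (7.52 to 13.9 against 3.81 to 4.88 RPKM), Spi1 (4.66 to 26.2 against 2.26 to 4.30) and Cebpe (22.3 to 37.7 against 5.65 to 21.8). The part of immediate-early genes in this split of levels was not tested. With their summed level (log2) as a covariate, the edgeR log2 fold change by genotype in MNCs was 0.52 for Spi1, -0.37 for Cebpb and -0.69 for Cebpe. Without it these were 0.71, -0.46 and -0.27, and no factor was called in either fit.

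**Figure D2:**
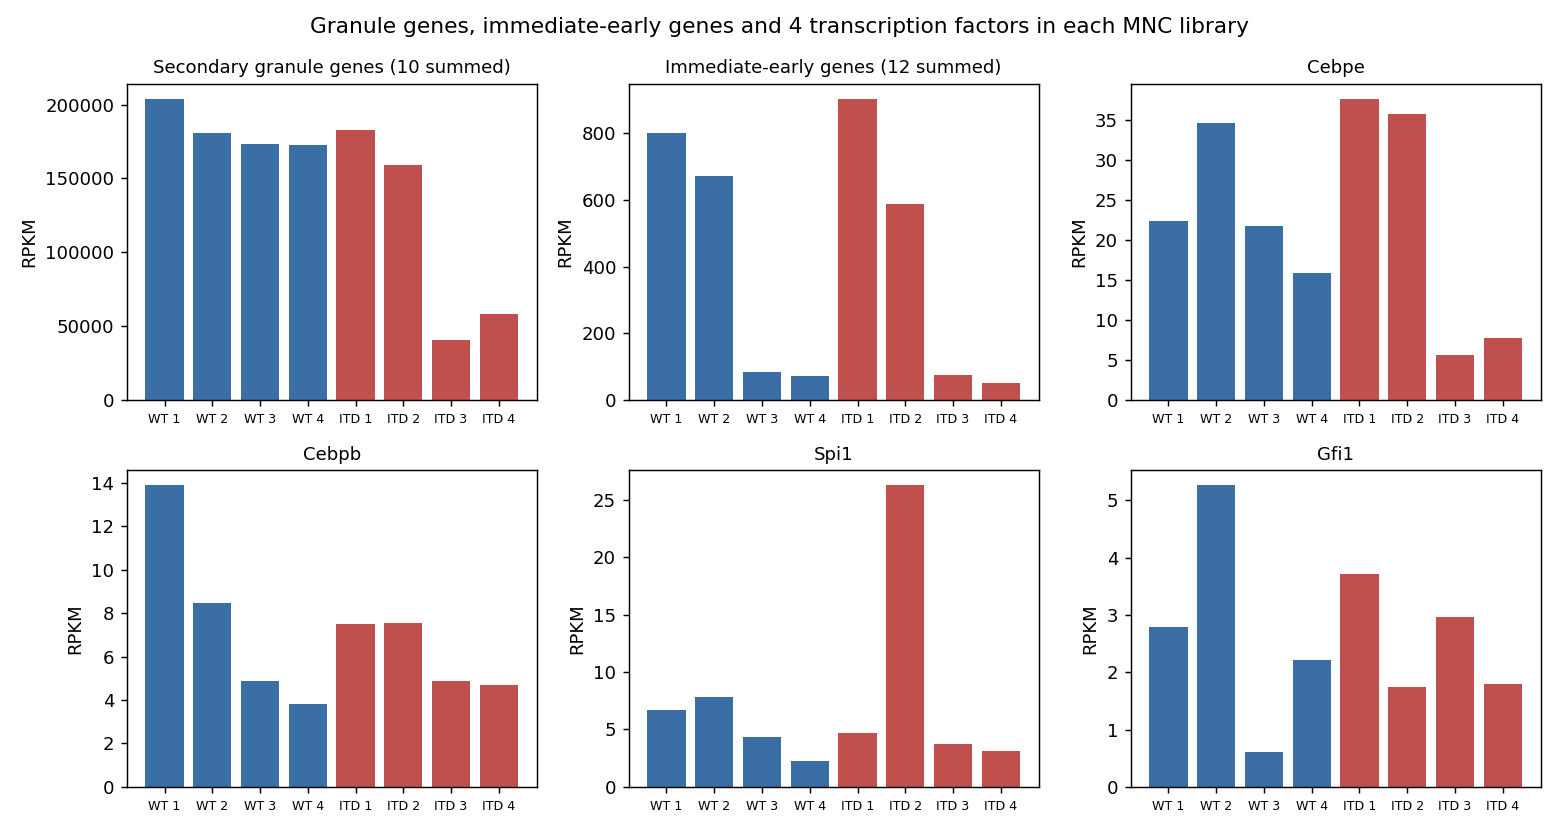
Summed RPKM of 10 secondary granule genes and of 12 immediate-early genes, and RPKM of Cebpe, Cebpb, Spi1 and Gfi1, in each of the 8 MNC libraries (blue, WT replicates 1 to 4; red, Flt3 ITD/ITD replicates 1 to 4). Cebpe and the secondary granule genes are lowest in Flt3 ITD/ITD replicates 3 and 4, at 5.65 and 7.74 RPKM of Cebpe, and Spi1 is highest in Flt3 ITD/ITD replicate 2, at 26.2 RPKM.

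The genotypes were therefore also compared within each set, with 2 mice against 2 in each fit. The sets were taken from levels seen in these same libraries, so the values below are a description and not independent support. Of the 10 factors, 6 had fold changes of opposite sign in the sets: Spi1, Cebpe, Gfi1, Myb, Runx1 and Myc. Some of these fold changes were smaller than their SE. Examples were Myb (-0.13, SE 0.30) and Myc (-0.085, SE 0.53) in replicates 1 and 2, and Gfi1 (0.26, SE 0.79) in replicates 3 and 4. The share of all genes with opposite signs was not counted. Cebpe had a log2 fold change of 0.38 (SE 0.29, edgeR adjusted p = 0.88) in replicates 1 and 2 and of -1.92 (SE 0.36, edgeR adjusted p = 0.0612) in replicates 3 and 4, where it was the 1 factor of the 10 to be called. In replicates 3 and 4, 8.53% of 13970 genes were called, so that 1 of 10 is near the background of that fit. The low level of Cebpe in mutant replicates 3 and 4 had been seen before this fit. The difference between the sets was not tested. The remaining 4 kept their sign in both: Cebpa (0.51 and 0.59), Cebpb (-0.56 and -0.27), Meis1 (0.09 and 0.08) and Ikzf1 (-0.51 and -0.23).

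**Figure D3:**
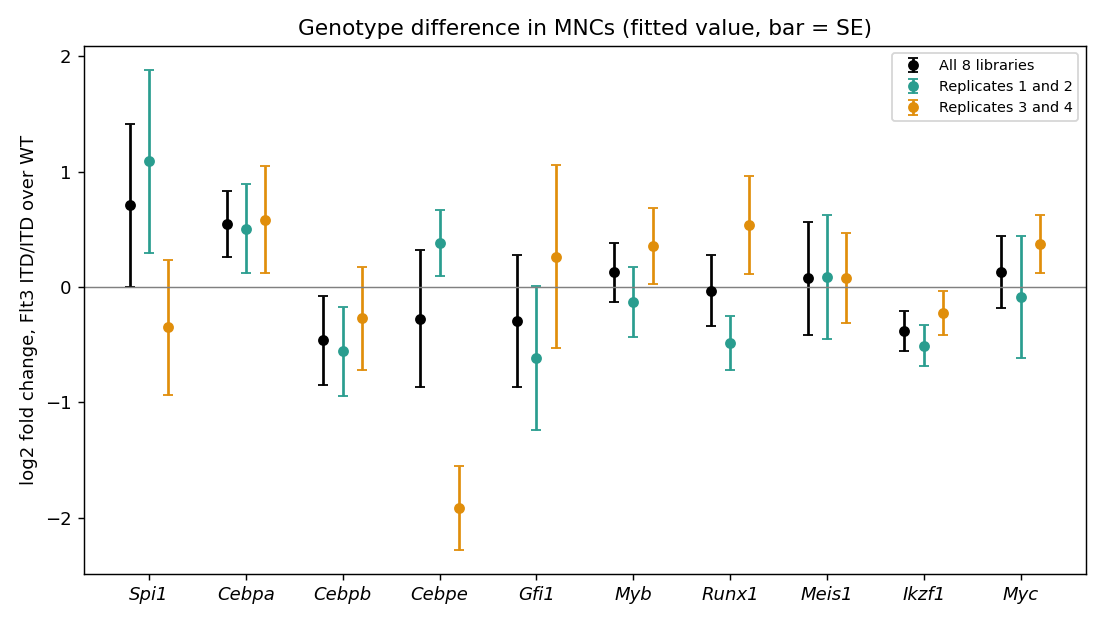
Fitted log2 fold change (Flt3 ITD/ITD over WT, vertical axis) of each factor in MNCs, from all 8 libraries (black), replicates 1 and 2 (green) and replicates 3 and 4 (orange). Bars are standard errors. The green and orange fits each set 2 mice against 2, in sets taken from levels seen in these libraries. Cebpe in replicates 3 and 4, at -1.92, is the 1 value past the threshold.

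Other transcripts moved across the same libraries. Secondary granule genes, such as Ltf, Camp and Ngp, encode proteins of maturing neutrophils. The list read under this name also holds S100a8 and S100a9, which encode cytosolic proteins of neutrophils. S100a9 alone had a mean of 33892 RPKM in WT MNCs. The summed level of the 10 listed was 172550 to 203994 RPKM in WT MNCs, 182613 and 159132 in Flt3 ITD/ITD replicates 1 and 2, and 40847 and 58378 in replicates 3 and 4, with no gene of the list at 0 in any library. None of the 10 was called over all libraries, 9 had a negative fold change and the median was -0.80. In replicates 3 and 4 alone, 9 of the 10 were called, where 8.53% of 13970 genes were called. The genes were read from the same libraries, so these calls are not independent results. The summed monocyte markers were highest in the same 2 mutant libraries, at 2737 and 1844 RPKM against 619 to 1409 in the other 6. The erythroid markers ranged from 76.0 to 56828 RPKM in WT MNCs and from 918 to 9164 in Flt3 ITD/ITD MNCs. The stem and progenitor cell markers were higher in every Flt3 ITD/ITD MNC library (44.9 to 110 RPKM) than in any WT library (19.6 to 34.3), although without Flt3, which is on that list, the ranges overlapped (30.1 to 99.1 and 12.6 to 30.6). The same list summed to 214 to 594 RPKM in the EC and MSC libraries, so its sum is not particular to stem and progenitor cells here. The megakaryocyte markers were lower in every Flt3 ITD/ITD library, at 3.66 to 12.5 RPKM against 12.8 to 30.6. The endothelial markers lay at 15.4 to 34.9 RPKM against 7.99 to 15.2, and the dendritic cell markers at 2263 to 26224 against 662 to 2903, the highest value being that of Flt3 ITD/ITD replicate 3. The part of the mix of cells in the levels of the factors was not tested.

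Primary granule genes encode enzymes made at the promyelocyte stage. All 6 had a positive fold change in MNCs, with a median of 0.73, but 0 of 6 were called by edgeR's quasi-likelihood test, 2 had an unadjusted p below 0.05, and edgeR's exact test and DESeq2 called 1 each. Mpo (myeloperoxidase) had 505 ± 223 RPKM in WT and 1612 ± 724 in Flt3 ITD/ITD MNCs (SD, n = 4 each; log2 fold change 1.48, edgeR adjusted p = 0.40). Elane (neutrophil elastase) had 596 ± 352 and 1415 ± 582 RPKM (log2 fold change 1.12, edgeR adjusted p = 0.47). The ranges of both genes overlapped between genotypes.

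Among 8 myeloid cytokine receptors 4 had a positive and 4 a negative fold change, with a median of 0.24. Of these receptors 6 were higher in Flt3 ITD/ITD MNCs by mean RPKM. None was called by edgeR, 3 had an unadjusted p below 0.05 and DESeq2 called 2. Over all genes, 1447 of 13926 had an unadjusted p below 0.05 by edgeR, and DESeq2 called 446 of 22751. Il6ra, the interleukin-6 receptor, had 4.56 ± 1.06 RPKM in WT and 8.75 ± 2.08 in Flt3 ITD/ITD MNCs (SD, n = 4 each), and every mutant library lay above every WT library (exact permutation p = 0.0286, edgeR adjusted p = 0.42). Genotypes did not overlap, in either direction, in 6.71% of all genes tested, and Il6ra was named for its small p. Flt3 had a log2 fold change of 1.06 (edgeR adjusted p = 0.42).

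The other C/EBP genes gave no call either. Of the 7 family members 6 had a negative fitted fold change in MNCs, with a median of -0.27, and Cebpa was the exception. By mean RPKM 3 were higher in Flt3 ITD/ITD MNCs, Cebpa, Cebpg and Cebpz, so that the direction of the last 2 depended on the scale. Ddit3, which encodes the stress-induced member CHOP, had 28.6 ± 15.3 RPKM in WT and 17.4 ± 10.2 in Flt3 ITD/ITD MNCs (SD, n = 4 each; edgeR adjusted p = 0.57). Cebpd had 7.67 ± 3.63 and 6.51 ± 4.36, Cebpg 7.24 ± 0.268 and 7.89 ± 1.61, and Cebpz 11.03 ± 3.69 and 12.1 ± 4.70, each within the spread between mice.

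Direct partners of the factors gave no call. Cbfb, the subunit that RUNX1 binds DNA with, had 22.4 ± 6.19 RPKM in WT and 29.5 ± 5.08 in Flt3 ITD/ITD MNCs (edgeR adjusted p = 0.70). Max, the partner of MYC, had 23.2 ± 5.75 and 23.4 ± 10.4 (edgeR adjusted p = 0.89). Of 21 partners and cofactors tested 0 were called, 16 had a negative fold change and 1 had an unadjusted p below 0.05. On the scale of mean RPKM 9 of the 21 were higher in Flt3 ITD/ITD MNCs, so that the count of directions depended on the scale. The smallest p-values were those of Runx1t1 (edgeR adjusted p = 0.43) and Crebbp (edgeR adjusted p = 0.52).

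Other transcription factors of blood lineages were read from the same fit. Of 16 further stem and progenitor factors tested 0 were called by edgeR, 4 had an unadjusted p below 0.05, DESeq2 called 2, and the median was -0.12. Lmo2, a scaffold protein of stem and erythroid cells, had 42.6 ± 6.54 RPKM in WT and 28.01 ± 4.36 in Flt3 ITD/ITD MNCs (SD, n = 4 each), with no overlap, as in 6.71% of all genes tested in either direction (log2 fold change -0.83, edgeR adjusted p = 0.40). Lmo2 was named for its small p. Tal1, which encodes a partner of LMO2, had a log2 fold change of -2.60 (edgeR adjusted p = 0.42).

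Of 18 granulocyte and monocyte factors 0 were called and 1 had an unadjusted p below 0.05, Zeb2, with 24.1 ± 13.6 RPKM in WT and 44.5 ± 2.13 in Flt3 ITD/ITD MNCs (SD, n = 4 each; edgeR adjusted p = 0.47). Id1, an inhibitor of helix-loop-helix factors, came next (edgeR adjusted p = 0.61). The list's median was 0.02, with 9 genes on either side of 0, and 12 were higher in Flt3 ITD/ITD MNCs by mean RPKM.

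Of 15 lymphoid factors 11 had a negative fold change, with a median of -0.41, and 6 were higher in Flt3 ITD/ITD MNCs by mean RPKM. None was called by edgeR's quasi-likelihood test, 2 had an unadjusted p below 0.05, and edgeR's exact test and DESeq2 called 1 each. Ebf1, a master regulator of B cells, had 20.0 ± 6.12 RPKM in WT and 10.8 ± 3.996 in Flt3 ITD/ITD MNCs (SD, n = 4 each; log2 fold change -1.08, edgeR adjusted p = 0.40), and Lef1 had a log2 fold change of -1.14 (edgeR adjusted p = 0.42). B cell markers summed to 496 to 1309 RPKM in WT and 234 to 863 in Flt3 ITD/ITD MNCs. Of 6 erythroid and megakaryocyte factors 5 had a negative fold change, 0 were called by edgeR or DESeq2 and 0 had an unadjusted p below 0.05. Mean RPKM was higher in Flt3 ITD/ITD MNCs for 2 of the 6. Gata1 ranged from 0.03 to 82.0 RPKM in WT MNCs alone (edgeR adjusted p = 0.50), and Zfpm1, its cofactor, stayed at or below 0.52 RPKM (edgeR adjusted p = 0.60).

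Genes around MYC were read in the same way. Of 12 genes of the MYC network 0 were called by edgeR or DESeq2 and 0 had an unadjusted p below 0.05. Their fitted fold changes had 6 on either side of 0, and 8 were higher in Flt3 ITD/ITD MNCs by mean RPKM. Mxd3 and Mxi1, which compete with MYC for MAX, had the smallest p-values (edgeR adjusted p = 0.53 and 0.55). Of 20 growth genes regulated by MYC 13 had a positive fold change, with a median of 0.13, and 16 were higher in Flt3 ITD/ITD MNCs by mean RPKM. None was called by edgeR, 4 had an unadjusted p below 0.05 and DESeq2 called 1. Odc1, the first enzyme of polyamine synthesis, had 30.4 ± 16.7 RPKM in WT and 12.7 ± 2.41 in Flt3 ITD/ITD MNCs, and Ccnd2, cyclin D2, had 12.5 ± 4.39 and 25.1 ± 9.49 (SD, n = 4 each; edgeR adjusted p = 0.42 for both).

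The same comparison was made in the niche cells. In ECs 4 factors had enough counts to be tested, Cebpa, Cebpb, Runx1 and Myc, and 0 of 4 were called, where 0.0081% of 12351 genes were called. Their unadjusted p-values lay between 0.45 and 0.77, and DESeq2 and the exact test called none. Myc held 9.56, 33.2, 6.10, 21.7 and 23.2 RPKM in WT ECs and 6.14, 31.2, 0.83, 23.4 and 49.4 in Flt3 ITD/ITD ECs (log2 fold change 0.26, edgeR adjusted p = 0.9998). The highest and lowest libraries were again both mutant.

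Runx1 was as uneven in ECs, at 0.35, 1.40, 0.05, 4 and 0.12 RPKM in WT and 2.09, 1.38, 0.02, 2.04 and 6.62 in Flt3 ITD/ITD libraries. Its highest library lay 331 times above its lowest, with 997 and 4 counts. Cebpa had 1 to 270 counts in WT ECs and 0 to 103 in Flt3 ITD/ITD ECs, and Cebpb 10 to 80 and 5 to 145. None of these differed between genotypes beyond the spread between mice, the smallest exact permutation p over the 10 factors in ECs being 0.44. The edgeR SE of the log2 fold change ran from 0.68 (Cebpb) to 1.42 (Cebpa), so that changes of a few-fold could go uncalled.

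In MSCs 5 factors were tested, Cebpa, Cebpb, Runx1, Meis1 and Myc, and 0 of 5 were called, where 0.0295% of 13574 genes were called. Their unadjusted p-values lay between 0.15 and 0.99, and DESeq2 and the exact test called none. The edgeR SE of the log2 fold change ran from 0.46 (Runx1) to 1.33 (Cebpa), again wide enough to leave changes of a few-fold uncalled. Meis1 held 1.14, 6.70, 5.69, 5.72 and 4.67 RPKM in WT MSCs and 22.5, 10.3, 7.77, 8.05 and 0.80 in Flt3 ITD/ITD MSCs. Of the mutant libraries 4 lay above all WT libraries, and replicate 5, which held leukocyte transcripts, lay below them (log2 fold change 1.11, SE 0.71, edgeR adjusted p = 0.9994; exact permutation p = 0.20). Without that library the log2 fold change was 1.41 (edgeR adjusted p = 0.9993), and without mutant replicate 1, the highest, it was 0.56.

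Runx1, which also acts in cartilage and bone precursors, held 12.2, 32.1, 21.2, 22.9 and 33.8 RPKM in WT MSCs and 5.39, 22.1, 30.1, 7.98 and 22.3 in Flt3 ITD/ITD MSCs (log2 fold change -0.49, edgeR adjusted p = 0.9994). Mutant replicates 1 and 4 lay below all WT libraries. Myc held 25.9, 111, 134, 71.2 and 81.4 RPKM in WT and 70.0, 107, 165, 18.6 and 202 in Flt3 ITD/ITD MSCs (log2 fold change 0.43, edgeR adjusted p = 0.9994).

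Cebpb had 12.4 ± 8.27 RPKM in WT and 11.9 ± 5.96 in Flt3 ITD/ITD MSCs (SD, n = 5 each), the smallest difference of the 5. Cebpa, which also acts in fat cell precursors, had 0.01 to 2.81 RPKM in WT MSCs and 0.03 to 7.74 in Flt3 ITD/ITD MSCs. Its log2 fold change was 1.11, and -0.41 without mutant replicate 1, the highest library.

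The difference of the genotype effect between populations was tested in 1 fit of all 28 libraries, and 0 of 10 factors were called in each of the 3 comparisons. Of all genes, 0.0118% were called between MNCs and ECs, 0.00592% between MNCs and MSCs and 0.379% between MSCs and ECs. DESeq2 called 0 of the 10 in each. At an unadjusted p below 0.05, Spi1, Cebpe and Gfi1 passed in the comparison of MNCs with ECs by edgeR (adjusted p = 0.55, 0.46 and 0.56). So did 1391 of all 16897 genes tested. These 3 factors had few counts in ECs. In ECs their counts lay almost entirely in Flt3 ITD/ITD replicate 2, with 36, 33 and 3 counts, against at most 1 count in any other EC library. For Gfi1 the single count in Flt3 ITD/ITD replicate 1, a smaller library, gave 0.05 RPKM, against 0.04 in replicate 2. Without Flt3 ITD/ITD EC replicate 2 and MSC replicate 5 the edgeR adjusted p was 0.92 for Spi1 and 0.82 for Gfi1, and Cebpe had no count left in ECs to compare.

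More of the factors were called between populations than between genotypes. Of the 10 factors 8 were higher in MNCs than in ECs (adjusted p below 0.1), where 26.3% of 16897 genes were higher. The exceptions were Cebpa (edgeR adjusted p = 0.12) and Myc (edgeR adjusted p = 0.38). Against MSCs 5 were higher in MNCs (24.8% of all genes) and 2, Runx1 and Myc, were higher in MSCs (26.7% of all genes). Between niche populations 4 were higher in MSCs than in ECs (20.9% of all genes), namely Cebpb, Runx1, Meis1 and Myc, and none was higher in ECs. The numbers of factors called were the same, at 8, 7 and 4, with WT libraries alone and without Flt3 ITD/ITD EC replicate 2 and MSC replicate 5. They were also the same without 5 niche libraries with leukocyte or granule transcripts, a choice made after seeing the data. Flt3 ITD/ITD EC replicates 3 and 5, with 15.9 and 5.96 RPKM of primary granule genes, stayed in that fit.

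Spi1, Cebpe, Gfi1, Myb and Ikzf1 were the 5 higher in MNCs than in both niche populations, and for each of them every MNC library lay above every niche library. Gfi1 had 0 counts in all 10 MSC libraries, which puts its share of counts at least 43.9-fold lower than in MNCs at a floor of 3 counts per library, and at most 3 counts in any EC library. Cebpe had at most 1 count in MSCs and 0 counts in 9 of 10 EC libraries, the exception being Flt3 ITD/ITD replicate 2 with 33 counts.

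Myb had at most 2 counts in ECs, and in MSCs it had 14 counts in Flt3 ITD/ITD replicate 5 and at most 3 in the others. Spi1 had 36 and 1 counts in Flt3 ITD/ITD EC replicates 2 and 3 and 0 counts in the other 8, and at most 6 counts in MSCs. Ikzf1 was less clean, with 33 counts in WT EC replicate 1, which held granule transcripts, 32 in Flt3 ITD/ITD EC replicate 2, and 42, 92 and 66 in WT MSC replicates 3 and 4 and Flt3 ITD/ITD MSC replicate 5. The 8 pan-leukocyte markers summed to 399 RPKM in Flt3 ITD/ITD EC replicate 2 and 337 in Flt3 ITD/ITD MSC replicate 5, against 17.2 to 155 in the other niche libraries and 5788 to 9222 in MNCs. Of these markers 1 was at 0 counts in the first library and none in the second, and their part in the values of the factors was not tested.

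Meis1 set the niche populations apart most clearly. It lay between 0.80 and 22.5 RPKM in MSCs and between 0.05 and 0.25 in ECs, with no overlap (log2 difference 5.70, SE 0.52, edgeR adjusted p = 4.65e-09). MSCs and MNCs did not differ detectably in Meis1 (7.33 ± 6.08, n = 10, against 5.79 ± 3.02 RPKM, n = 8; log2 difference 0.34, SE 0.45, edgeR adjusted p = 0.58).

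By the edgeR fit, Runx1 was 15.2-fold higher in MSCs than in ECs and 3.79-fold higher than in MNCs (21.0 ± 9.81, 1.81 ± 2.10 and 5.66 ± 1.82 RPKM; edgeR adjusted p = 6.42e-05 and 0.0219). By the same fit Myc was 5.57-fold higher in MSCs than in ECs and 3.78-fold higher than in MNCs (98.7 ± 57.9, 20.5 ± 15.1 and 27.7 ± 10.3 RPKM; edgeR adjusted p = 3.61e-04 and 0.00415). Ratios of the mean RPKM of MSCs to ECs were 11.6 for Runx1 and 4.82 for Myc. In all 4 comparisons the ranges of the libraries overlapped. In MSCs Myc lay above 96.5% of all genes by mean RPKM. The summed immediate-early genes were 1591 to 5298 RPKM in niche libraries, against 50.7 to 904 in MNCs, and their part in the level of Myc was not tested.

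Cebpb was 7.19-fold higher in MSCs than in ECs by the fit and 6.07-fold by mean RPKM (12.1 ± 6.80 against 2.001 ± 1.30 RPKM, SD, n = 10 each; edgeR adjusted p = 2.16e-05). Its difference between MSCs and MNCs missed the threshold by edgeR (log2 difference 0.92, SE 0.45, adjusted p = 0.103) and passed it with RLE normalization and by DESeq2. Cebpa was uneven in both niche populations and passed in none of the 3 contrasts between populations (edgeR adjusted p = 0.12, 0.39 and 0.56), although DESeq2 called it lower in ECs than in MNCs. Among their partners, Cbfb had 26.0 ± 6.46 RPKM in MNCs, 23.7 ± 14.4 in ECs and 28.05 ± 12.98 in MSCs, and Max 23.3 ± 7.80, 10.2 ± 8.66 and 5.47 ± 2.61.

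**Figure D4:**
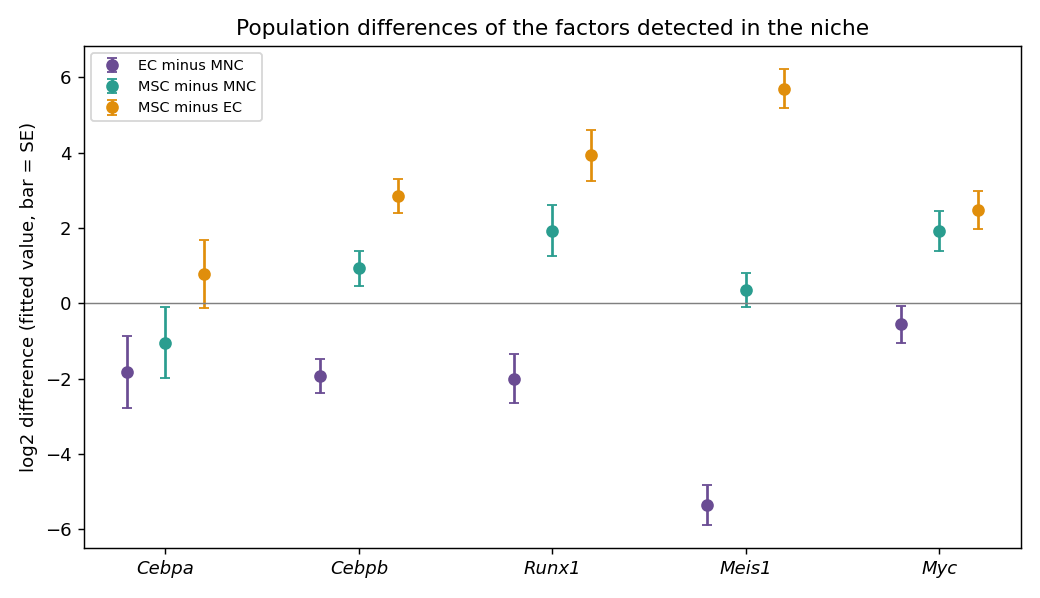
Fitted log2 difference between populations (vertical axis) of the 5 factors with enough counts to be tested by genotype in ECs or MSCs, from 1 fit of all 28 libraries. Purple points are EC minus MNC, green points MSC minus MNC and orange points MSC minus EC, and bars are standard errors. Meis1 is lower in ECs than in both other populations, at -5.35 for EC minus MNC and 5.70 for MSC minus EC.

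For each factor, the 2 genes with the most similar profile were found among 13727 genes with a mean of at least 1 RPKM, by the root mean square difference of centered log2(RPKM + 1) over the 28 libraries. Myb was closest to Traf3ip3 (0.25) and Spn (0.27), Ikzf1 to Arhgap30 (0.28) and Dock2 (0.32), Cebpe to Rgs14 (0.29) and BC049730 (0.32), and Gfi1 to DQ560772 (0.29) and 1700010I14Rik (0.30). Spi1 was closest to Adap1 (0.43) and 1700097N02Rik (0.43), Cebpa to Snord88a (0.61) and Stk38 (0.62), and Cebpb to Papd7 (0.68) and Itgb3 (0.70). Runx1 was closest to Cdc14b (0.74) and Tcea3 (0.75), and Meis1 to Slc22a4 (0.72) and Rsph1 (0.79). The closest genes to Myc were Runx1 (0.91) and Cebpb (0.93). These differences are not scaled to how much a factor itself varied: relative to its own spread the closest match was at 67.1% for Cebpa, 61.8% for Myc and 60.9% for Cebpb, and at 11.6% for Myb. All these profiles share the 28 libraries and the contrast between populations.

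RefSeq promoter windows of 250 bases before a transcript start were at hand for 7 of the 10 factors, in 10 windows (GRCm38.p6). Of these 8 held more CG dinucleotides than the median of 6 over 32851 windows. The windows of Myb, detected almost entirely in MNCs, and of an internal start of Runx1, highest in MSCs, are shown because genes of such different patterns both have CG-rich starts. The count of CG dinucleotides and these windows were chosen after the values were seen. Both lie on the minus strand and are written 5′ to 3′ along it, with each CG in capitals. The first is at chr10:21160985-21161234, directly upstream of the gene, and the second at chr16:92697330-92697579, within the gene.
Myb: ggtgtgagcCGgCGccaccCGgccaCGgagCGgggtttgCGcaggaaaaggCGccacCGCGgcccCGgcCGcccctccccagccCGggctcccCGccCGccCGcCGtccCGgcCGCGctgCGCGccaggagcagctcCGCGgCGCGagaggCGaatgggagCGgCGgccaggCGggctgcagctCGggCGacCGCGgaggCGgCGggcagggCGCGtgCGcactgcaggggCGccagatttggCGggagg
Runx1: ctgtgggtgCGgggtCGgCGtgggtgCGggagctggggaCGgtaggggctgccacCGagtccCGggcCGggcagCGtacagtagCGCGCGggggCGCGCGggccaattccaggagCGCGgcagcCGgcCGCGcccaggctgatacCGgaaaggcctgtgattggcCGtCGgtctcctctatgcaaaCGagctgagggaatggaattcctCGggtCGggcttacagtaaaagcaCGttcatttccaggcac
The Myb window holds 40 CG dinucleotides, more than 98.7% of all windows hold, and the Runx1 window 27, more than 91.4%. A second Runx1 window, at the start of the longest transcript, holds 2. Counts per gene do not tell which start was used.

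Letters bound by the factors themselves were searched in the 10 windows on both strands. GAGGAAGT, read by ETS factors such as PU.1, was in 0 of 10 windows and in 2.44% of all windows, and TTGCGCAA, read by C/EBP factors, was in 0 of 10 and in 0.164%. TGTGGT (RUNX) and TGGGAA (Ikaros) were each in 1 window, that of Meis1, and in 14.0% and 21.6% of all windows. CACGTG (the MYC E-box) and CAACTG (MYB) were each in 1 window, the second of Runx1, and in 6.02% and 11.1%. AAATCA (GFI1) was in 1 window, of Ikzf1, and in 12.4% of all windows, and TGACAG (MEIS) was in 0 of 10 and in 15.9%. A match or its absence describes the letters alone.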

How the data were processed

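The authors aligned reads to mm10 transcripts with Bowtie, discarded reads that did not map uniquely, estimated abundance with RSEM, and deposited whole-number counts per gene without normalization and RPKM for the same genes. Libraries were grouped by population and genotype from their labels. Members and lists of genes were chosen with earlier results of these data known. Counts were tested in R 4.3.3 with edgeR 4.0.16 (quasi-likelihood test, TMM normalization, filter on low counts, no covariate), within each population for genotype and in 1 fit of 28 libraries for populations and interactions. P-values were adjusted over all genes tested by the Benjamini-Hochberg method and called below 0.1. As alternatives, DESeq2 1.42.0 and the exact test of edgeR were run. RPKM of single genes were compared by exact two-sided permutation. The edgeR genotype test within each population was tested on simulated data, and the fit of 28 libraries, DESeq2 and the permutation test were not. From each list, genes called in MNCs were named, or the 2 with the smallest p where none was called, and 1 further gene of the naming rule is not reported here. Within a population each library came from a different mouse, and whether populations shared mice is not given in the sources used here. Positions are those of RefSeq on GRCm38.p6, the assembly of mm10. No protein sequences were used here.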

Additional observations from a re-analysis of the deposited data

Results flagged for a closer look

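In groups of 4 or 5 libraries, 48 groups with more than 3 counts in at least 1 library were examined for a single library far from the rest, that is, whose gap to its neighbour relative to the range of the group passed Dixon's critical value. This was so in 8 groups (16.7%). Chance gives about 1 in 20 for independent, normally distributed values, which low counts are not, and 5 of the 8 lay in the same 2 libraries. In MNCs this was Spi1 in Flt3 ITD/ITD replicate 2 (26.25 RPKM against 3.11 to 4.66 in the other mutant libraries). In Flt3 ITD/ITD EC replicate 2, Spi1 (0.88 RPKM, others at most 0.03), Cebpe (0.87 RPKM, others 0) and Ikzf1 (0.21 RPKM, others 0) stood apart together. In Flt3 ITD/ITD MSC replicate 5, Myb (0.40 RPKM) and Ikzf1 (1.25 RPKM) did so, with at most 0.01 RPKM in the others. The last 2 were Ikzf1 in WT EC replicate 1 (0.49 RPKM, others at most 0.08) and Cebpa in Flt3 ITD/ITD MSC replicate 1 (7.74 RPKM, others at most 1.88).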

How the results depend on the processing

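The number of factors called by genotype stayed at 0 in ECs and MSCs under every alternative, and in MNCs under all but 1, which gave 1 (replicates 3 and 4 only). With replicate number as a block it was 0 in each population. Same-numbered libraries of the genotypes correlated between -0.12 and 0.07 in their deviations from the group means. These correlations cannot decide whether the numbers pair mice, because noise in libraries of few cells also brings them near 0. Counts between populations kept within 1.5 times under all alternatives. Over all genes, the genotype calls depended on the test: edgeR's quasi-likelihood test called 2, 1 and 4 genes in MNCs, ECs and MSCs, its exact test 168, 16 and 20, and DESeq2 446, 390 and 220. For the lists of genes in MNCs, 18 recomputed counts of calls moved by over 1.5 times and 202 did not. Single fold changes turned sign as follows (log2). With replicates 1 and 2 only: Cebpe 0.38, Myb -0.13 and Myc -0.085. With replicates 3 and 4 only: Spi1 -0.35, Gfi1 0.26 and Runx1 0.54. With the block: Runx1 0.055 in MNCs, Cebpa 0.13 and Myc -0.39 in ECs, Cebpb 0.20 in MSCs, and between MNC and niche effects Myc 0.24 (ECs) and Cebpa 0.072 (MSCs). With the immediate-early score as covariate: Runx1 0.036. In MSCs, Cebpb was 0.0093 with RLE normalization and 0.0078 with DESeq2. Without the 2 niche libraries, the difference of effects of Myc was 0.080 (MNCs and ECs) and 0.0024 (MNCs and MSCs), and without 5 niche libraries, chosen after seeing the data, it was 0.25, 0.46 and, between MSCs and ECs, -0.22. With WT libraries only, Meis1 was -0.15 for MSC minus MNC and Cebpa -0.29 for MSC minus EC.

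Leaving out 1 library at a time gave these ranges in MNCs: Spi1 -0.59 to 1.01, Cebpb -0.66 to -0.090, Cebpe -0.73 to 0.046, Gfi1 -0.64 to 0.16, Myb -0.085 to 0.26, Runx1 -0.28 to 0.11, Meis1 -0.32 to 0.43 and Myc -0.087 to 0.36. In ECs Myc ranged from -0.24 to 0.56, and in MSCs Cebpa from -0.41 to 1.92 and Cebpb from -0.26 to 0.27. The cause was not tested. An erythroid score as covariate, chosen after seeing the data, called 0 factors. In the niche cells 4 (ECs) and 5 (MSCs) of the 10 factors had enough counts to be tested. Median total counts per library were 18677598.5 in ECs and 29160966.5 in MSCs. In MNCs, where all 10 factors were tested, the median was 19035275.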
